A study of Mus musculus with 2 samples.

Results

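The lysosomal genes described here are the subunits of the vacuolar proton pump (V-ATPase), the cathepsin proteases and the LAMP membrane proteins. They were chosen by the gene symbol of the platform annotation, which had to begin with Atp6v or Atp6ap, or to be Cts or Lamp followed by a single letter or number, and each gene was read from its brightest probe set. The symbols gave 46 of 19494 genes, and each of these had 1 probe set. Of the 46, 14 were named for the V1 sector of the pump, 8 for the V0 sector, 3 for accessory proteins, 17 for cathepsins and 4 for LAMP proteins. Atp6v0c, which encodes the proton-carrying ring subunit, and Ctsd, an aspartic protease, had no named probe set and were not analysed here. Tcirg1, the a3 isoform of V0, has a symbol outside the rule and is not among the 46 genes or in the V0 counts.

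The study asked whether voluntary running changes the transcriptome of astrocytes after a stroke. The MCAO + exercise group and the MCAO + non-exercise group were both male C.B-17/Icr-+/+Jcl mice aged 7 weeks with permanent middle cerebral artery occlusion (MCAO), which closes an artery that feeds the cortex. Both had a running wheel for 1 week before surgery and received BrdU, a label of dividing cells, at 50 mg/kg/day right after surgery and on post-operative day (POD) 1, 2 and 3. MCAO + exercise mice then had a wheel for 24 h a day over 15 days, and MCAO + non-exercise mice had none. On POD15, cells carrying ACSA-2, a surface antigen of astrocytes, were sorted with magnetic beads from the ipsilateral cortices of 2 or 3 mice at a time. RNA of 4 such samples, about 70 ng each, was mixed into 1 pool per group, and about 200 ng per pool went onto 1 Clariom S array for mouse. With 1 array per group the spread between animals is unknown and limits the precision, so differences are given with no test and no error. Differences are MCAO + exercise minus MCAO + non-exercise, and direction is taken from the array labels. It is the reverse of the direction in the study's own lists of changed genes, which hold none of the lysosomal genes described here. One gene of those lists is Lcn2, a secreted protein of reactive astrocytes that the study followed with further assays, which it describes in the direction of the lists and not of the array labels. By the labels Lcn2 was higher with exercise, with a signal of 13.71 on the MCAO + exercise array and 11.92 on the MCAO + non-exercise array. Which of the array labels and the lists has the groups the right way round could not be settled from the deposited values. If the labels of the arrays were exchanged, every higher and lower below would turn round and the sizes would stay.

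V-ATPase pumps protons into lysosomes, endosomes and synaptic vesicles. Its V1 sector lies in the cytosol and splits ATP, and the V0 sector sits in the membrane and carries the protons. The acid lumen activates cathepsins, which digest proteins, and LAMP proteins coat the inner face of the lysosomal membrane. In the brain, microglia are rich in lysosomal proteases, whereas neurons also use the pump to load synaptic vesicles with transmitter. Many genes of this system carry a short promoter element called CLEAR, to which the factors TFEB and TFE3 bind, and its centre is the E-box core CACGTG.

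The E-box core was present in 8 of 38 promoters of these genes (21.1%), against 7.15% of all 32851 promoters in the RefSeq table and 9.07% of the promoters of genes above background. With a T before or an A after the core (TCACGTG on either strand, which contains CACGTG), the shares were 15.8%, 3.77% and 5.25%. For the 31 promoters of lysosomal genes above background, the shares were 25.8% for the core and 19.4% with the flanking base. A promoter here is the stretch from 250 bases before to 50 bases after an annotated start, and 35 of the 46 genes had at least 1 in the table. Matches describe letters and do not show binding. The core with a flanking base was in 3 of 6 promoters of V0 genes and 1 of 11 of V1 genes. It was in 1 of 14 promoters of cathepsins, 1 of 5 of LAMP genes and 0 of 2 of accessory genes. The following RefSeq sequences (GRCm38.p6, 5′ to 3′) show 1 gene that holds it from each group with any, namely Lamp1, Ctsa, Atp6v0b and Atp6v1a. The second annotated start of Atp6v1g2, which had the largest difference between the arrays among the 46 genes, follows for comparison. Capitals mark each core with a flanking T or A where present.
Lamp1, chr8:13158911-13159210, plus strand: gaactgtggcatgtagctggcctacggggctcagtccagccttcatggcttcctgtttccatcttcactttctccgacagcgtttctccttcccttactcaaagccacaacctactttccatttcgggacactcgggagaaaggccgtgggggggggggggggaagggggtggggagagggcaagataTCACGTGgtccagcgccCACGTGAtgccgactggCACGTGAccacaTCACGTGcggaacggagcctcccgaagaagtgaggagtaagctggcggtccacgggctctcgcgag
Ctsa, chr2:164833523-164833822, plus strand: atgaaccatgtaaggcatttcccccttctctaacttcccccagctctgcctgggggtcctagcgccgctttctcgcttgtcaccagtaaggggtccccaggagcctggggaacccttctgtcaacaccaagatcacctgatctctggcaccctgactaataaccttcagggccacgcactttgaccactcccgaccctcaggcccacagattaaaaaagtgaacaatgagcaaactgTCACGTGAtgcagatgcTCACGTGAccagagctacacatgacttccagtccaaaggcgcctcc
Atp6v0b, chr4:117887280-117887579, minus strand: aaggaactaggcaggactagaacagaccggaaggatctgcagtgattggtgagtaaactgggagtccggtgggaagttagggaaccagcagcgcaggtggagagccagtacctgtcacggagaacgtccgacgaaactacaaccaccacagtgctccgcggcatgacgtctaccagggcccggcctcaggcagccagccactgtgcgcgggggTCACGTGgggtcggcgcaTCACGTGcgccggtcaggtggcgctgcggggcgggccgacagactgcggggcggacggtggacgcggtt
Atp6v1a, chr16:44139210-44139509, minus strand: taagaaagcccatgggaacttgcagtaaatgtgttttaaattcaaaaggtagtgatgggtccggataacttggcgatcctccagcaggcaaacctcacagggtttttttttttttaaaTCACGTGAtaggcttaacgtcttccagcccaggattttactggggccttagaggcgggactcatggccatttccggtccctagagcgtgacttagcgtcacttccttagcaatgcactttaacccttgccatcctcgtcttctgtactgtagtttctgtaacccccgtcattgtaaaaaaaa
Atp6v1g2, chr17:35236346-35236645, plus strand: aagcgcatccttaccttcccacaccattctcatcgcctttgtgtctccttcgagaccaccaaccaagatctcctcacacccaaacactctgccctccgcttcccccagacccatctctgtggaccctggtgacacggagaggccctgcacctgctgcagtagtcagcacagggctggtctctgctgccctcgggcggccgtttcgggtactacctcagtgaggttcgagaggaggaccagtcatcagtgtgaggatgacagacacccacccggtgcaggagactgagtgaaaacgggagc

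In Lamp1 the 4 cores lay within 61 bases before the start, and Atp6v0b had 2 cores, at 36 and 18 bases before it. Ctsa had 1 core 12 bases before the start and another whose first base was the base 6 of the transcript, and its other annotated start had none. Neither annotated start of Atp6v1g2 had a core in this window. The other genes with a core were Atp6v0d1, Atp6v0e, Ctsf and Ctsl, the last 2 without the flanking base. All 8 were above background, and their differences between the arrays, MCAO + exercise minus MCAO + non-exercise, ran from -0.20 to 0.51 on the log2 scale with a median of 0.02. The 21 genes above background with a promoter but no core ran from -1.45 to 2.09, with a median of -0.04.

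**Figure D1:**
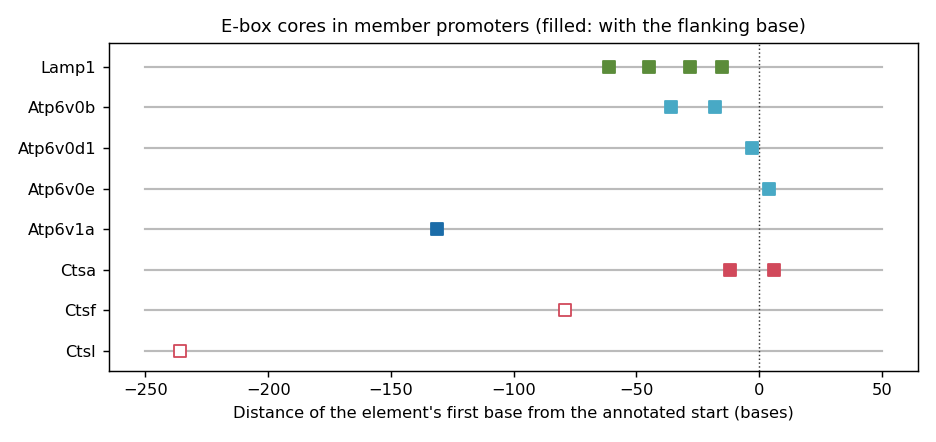
Position of the E-box core in the promoters of the 8 lysosomal genes that hold it. The x axis is the distance in bases of the core's first base from the annotated start, with each gene's window as a grey line, and filled squares have a flanking T or A whereas open squares do not. Lamp1 has 4 cores close to its start, and Ctsl has 1 at 236 bases before it.

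Signals are given as log2 of the deposited intensity. A gene was kept when it lay above the background, the 25th percentile of the named probe sets, on at least 1 array. This was 4.89 for MCAO + exercise and 5.08 for MCAO + non-exercise, and it kept 15196 genes in all and 39 of the 46. The 7 genes at background on both arrays were Atp6v1b1, Atp6v1c2, Ctsg, Ctsq, Ctsw, Lamp3 and Lamp5, and no fold is given for them. Of these, Atp6v1b1 and Atp6v1c2 are known from kidney, Ctsg is a granule protease of neutrophils, Ctsw is expressed in killer lymphocytes, Lamp3 in dendritic cells and Lamp5 in interneurons. Each signal depends on its own probes, so signals of different genes do not rank their RNA amounts.

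**Figure D2:**
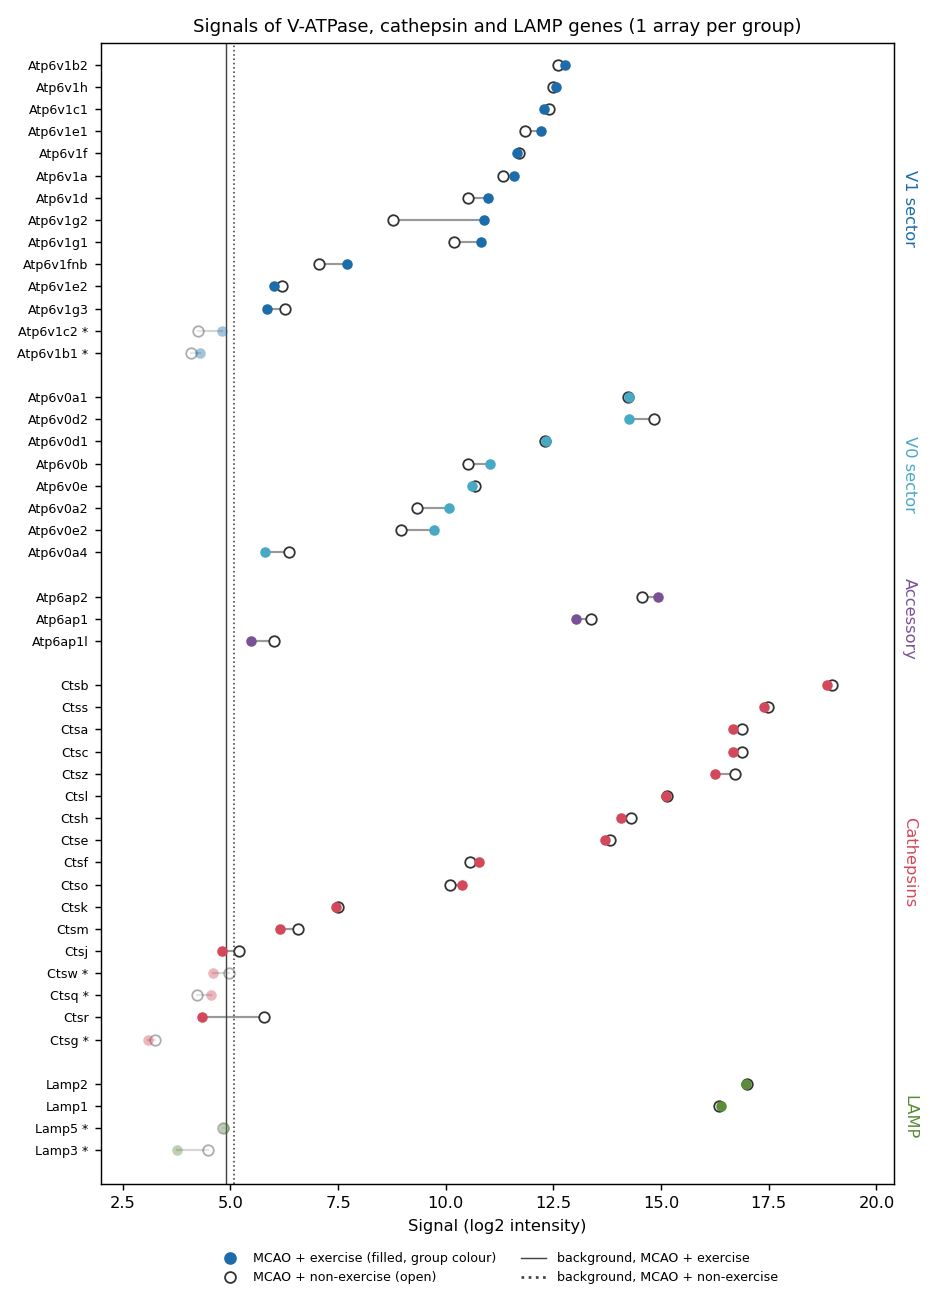
Signal (log2 intensity) of all 46 genes on the MCAO + exercise array (filled circles) and the MCAO + non-exercise array (open circles), with the background of each array as a vertical line and genes at background on both arrays faded and starred. The circles lie close together for most genes, and those of Atp6v1g2 are the farthest apart, at 10.88 and 8.79.

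Atp6v1g2 exceeded a log2 difference of 1. Ctsr was measured below -1, but it was above background on the MCAO + non-exercise array alone, which fixed its sign. With the MCAO + exercise background in place of its signal there, its difference is -0.89, which does not reach the threshold. By measured values 1 of the 39 kept genes was thus past 1 in each direction, and with background passed on both arrays 1 was higher and 0 lower. These counts stand against 3.77% higher, 2.36% lower and 6.13% either way among all 15196 kept genes. Of the 39 kept lysosomal genes, 29 lay within 0.5 either way, 6 were higher and 4 lower by more than 0.5, against 17.4% and 14.1% of all kept genes. The 6 include Atp6v1fnb, which matches the symbol rule but is not a pump subunit, and the 4 include Ctsr. Above 0 were 17 of the 39, against 53.5% of all kept genes, and the median difference was -0.04, against 0.04. Differences moved with signal across the whole array. When kept genes were split into 3 classes of equal size by mean signal, the medians were -0.15 in the dimmest class, 0.06 in the next and 0.17 in the brightest. In the brightest class 67.1% of genes were above 0. The 30 lysosomal genes in that class had a median of 0.01, with 16 above 0 and 14 under 0.

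**Figure D3:**
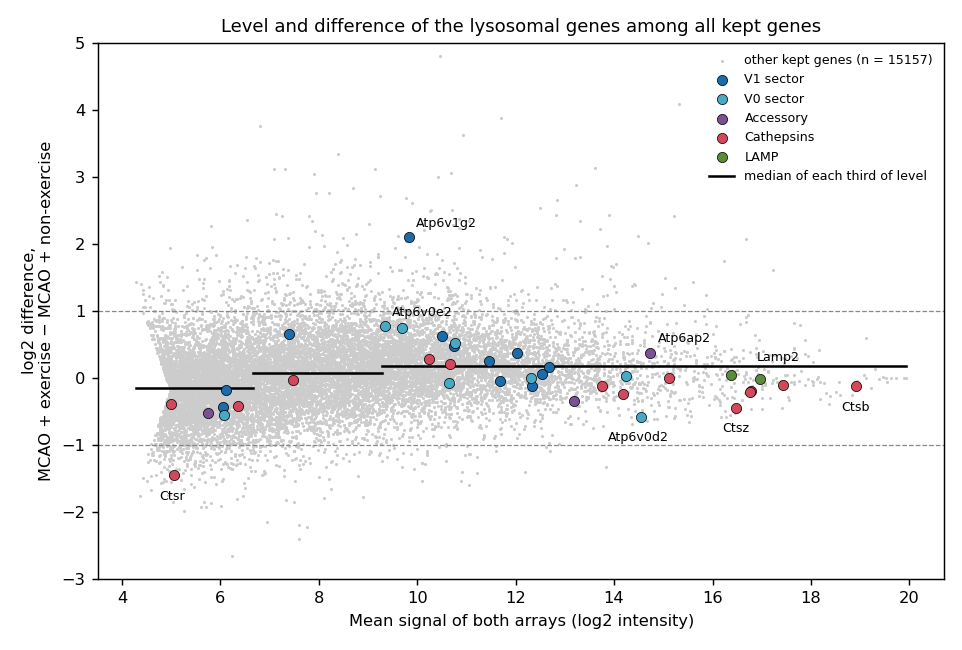
Log2 difference (MCAO + exercise minus MCAO + non-exercise) against the mean log2 signal of both arrays for the 39 kept lysosomal genes (coloured) and the other kept genes (grey), with the median of each of 3 classes of mean signal in black and the threshold of 1 dashed. Atp6v1g2 lies above 2 and the 7 cathepsins with a mean signal above 14 lie under the median of their class, and 1 other gene, at 11.2, is beyond the plotted range.

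The V1 sector held the one large difference, in a stalk subunit with several isoforms. Atp6v1g2 encodes the G2 subunit, an isoform of the peripheral stalk that is found mainly in neurons. Its intensity was 1884 on the MCAO + exercise array and 442 on the MCAO + non-exercise array, a difference of 2.09 or 4.27-fold, and only 50 of 15196 kept genes had a larger one. Under the scalings and the offset tried, it ranged from 1.91 to 2.09. Atp6v1g2 is not in the study's lists of changed genes, which used the same threshold of 1 but another background. The widely expressed isoform of the same subunit, Atp6v1g1, had signals of 10.81 with exercise and 10.19 without, a difference of 0.62. The kidney isoform Atp6v1g3 was dim, with 5.84 with exercise and 6.27 without, a difference of -0.43. The G isoforms thus spanned from -0.43 to 2.09.

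The remaining V1 subunits differed less. The catalytic subunit A, Atp6v1a, which splits ATP, had signals of 11.58 on the MCAO + exercise array and 11.33 on the MCAO + non-exercise array. Its partner in the head of the pump, subunit B2 (Atp6v1b2), had 12.77 with exercise and 12.60 without. These differences of 0.25 and 0.16 were close to the median of bright genes, 0.17. Of the rotor subunits, Atp6v1d had 10.98 with exercise against 10.51 without, a difference of 0.47, and Atp6v1f had 11.65 against 11.69, a difference of -0.04. Atp6v1e1, the other part of the stalk, had 12.22 with exercise against 11.85 without, a difference of 0.37, whereas the testis isoform Atp6v1e2 was dim, with 6.02 against 6.20. The subunits C and H regulate the contact of V1 with V0. Atp6v1c1 had a difference of -0.12, with 12.27 against 12.39, and Atp6v1h one of 0.05, with 12.55 against 12.50. Over the 12 kept V1 genes the median was 0.21, with 8 above 0 and 4 under 0, and 9 of the 12 lie in the brightest class, where 67.1% of genes were above 0. The median was 0.10 after median centring, 0.02 after quantile normalization and 0.03 after loess correction. The group includes Atp6v1fnb, which is only the annotated neighbour of Atp6v1f on chromosome 6 and not a pump subunit. It had 7.71 with exercise against 7.06 without, and without it the V1 median was 0.16.

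V0 genes went both ways. Atp6v0e2, an isoform of the small e subunit that is abundant in brain, had signals of 9.73 on the MCAO + exercise array and 8.96 on the MCAO + non-exercise array, a difference of 0.77. The a subunit holds the channels through which protons pass. Its isoform Atp6v0a2 had 10.07 with exercise and 9.32 without, a difference of 0.75. Atp6v0a1, the a isoform prominent in neurons, had nearly equal signals of 14.26 with exercise and 14.24 without. The kidney isoform Atp6v0a4 was dim, with 5.79 with exercise against 6.35 without. Atp6v0b, a subunit of the proteolipid ring, had 11.02 with exercise and 10.51 without, a difference of 0.51. Atp6v0e, the widely expressed e isoform, had 10.60 with exercise and 10.69 without.

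The d subunit, which joins the ring to the rotor, was measured as 2 isoforms with unlike differences. The widely expressed Atp6v0d1 had 12.32 on both arrays. Atp6v0d2, known from osteoclasts and macrophages, had 14.25 with exercise and 14.83 without, a difference of -0.59, or 1.50-fold lower. It was the largest negative difference among the 30 bright lysosomal genes, and it was lower under every scaling tried, at -0.78 after quantile normalization. Of the 7 osteoclast markers 4 were kept, with a median of -0.28, and Calcr, Oscar and Ocstamp were at background. Of the 4, 1 was above background with exercise alone, which fixed its sign, and the other 3 were under 0 with a median of -0.32. Of 20 markers of microglia and macrophages, 18 had a probe set and were kept, with 12 lower and a median of -0.13. The V0 median was 0.01 over 8 genes, with 5 above 0 and 3 under 0. It was -0.10 after median centring, -0.19 after quantile normalization and -0.14 after loess correction, so it had no stable sign.

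Accessory proteins of the pump also went both ways. Atp6ap2, known as the prorenin receptor and needed for assembly of the pump, had signals of 14.92 with exercise and 14.55 without, a difference of 0.37. Atp6ap1 (Ac45), another assembly factor, had 13.02 with exercise and 13.37 without, a difference of -0.35. The related gene Atp6ap1l was dim, at 5.48 with exercise and 6.01 without. Thus the 2 bright accessory genes had differences of similar size and opposite sign.

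**Figure D4:**
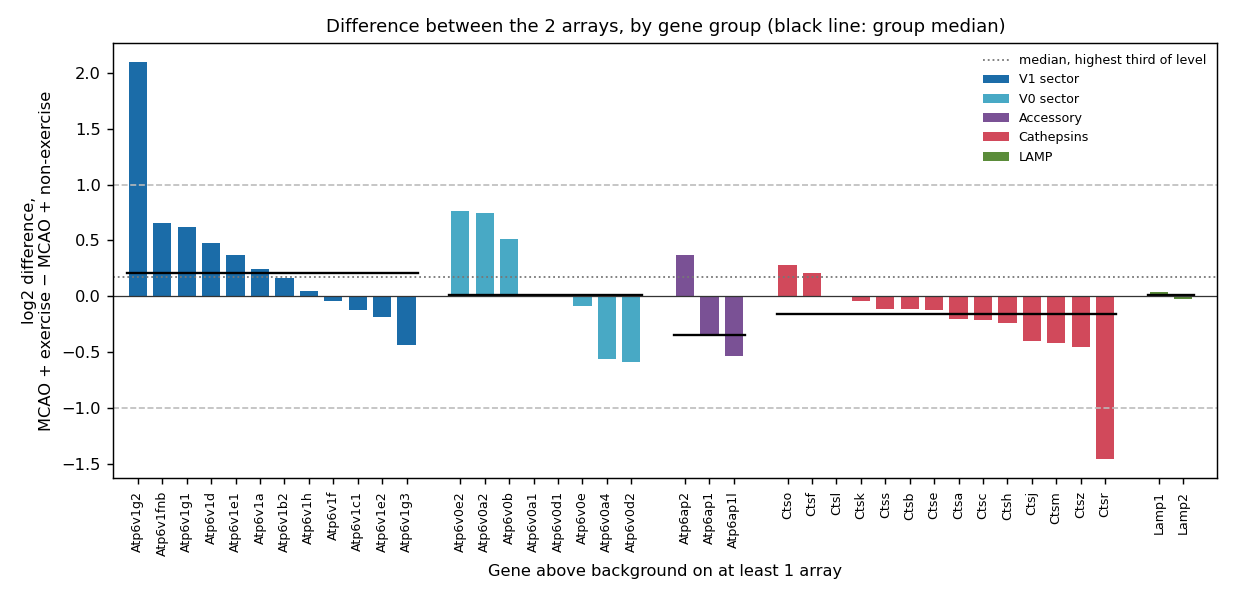
Log2 difference, MCAO + exercise minus MCAO + non-exercise, of each of the 39 kept genes, sorted within its group, with the median of each group as a black line, the threshold of 1 dashed and the median of the brightest class of kept genes (0.17) dotted. V1 genes range from -0.43 to 2.09, 12 of 14 cathepsins lie under 0, and Lamp1 and Lamp2 lie at 0.04 and -0.02.

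The pump genes were also grouped by where they are known to be expressed. Of 15 widely expressed subunits 14 had a probe set, and 10 of these were above 0 and 4 under 0, with a median of 0.21. All 14 lie in the brightest class, where 67.1% of genes were above 0 and the median was 0.17. The 3 isoforms enriched in brain, Atp6v1g2, Atp6v0e2 and Atp6v0a1, had a median of 0.77, though Atp6v0a1 was under 0 after each of the 3 scalings. Of 6 isoforms known from kidney, testis, epididymis or osteoclasts, 4 were kept and all 4 were under 0, with a median of -0.50. With no background filter all 6 entered, 2 were above 0 and the median was -0.31. Of these 4, Atp6v0d2 alone was bright, and in the dimmest class of kept genes 37.5% were above 0 and the median was -0.15. Tcirg1, the a3 isoform of V0, was not placed in any of these groups, and it was bright, with 12.82 on both arrays. Median centring and loess correction each left 8 of the 14 widely expressed subunits above 0 and quantile normalization left 7, with medians of 0.10 after centring, 0.02 after quantile normalization and 0.03 after loess correction. All 4 kept isoforms of other organs stayed under 0 in each of these.

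Neuron markers are given beside Atp6v1g2 because this isoform is found mainly in neurons. Of 15 neuron markers 14 were kept. Of these, 5 were higher and 4 lower by more than 1, against 3.77% and 2.36% of all kept genes. The median was 0.70. Of the 14, 1 was above background with exercise alone, which fixed its sign, and the other 13 had a median of 0.89. The summed intensity of the 14 was 49777 on the MCAO + exercise array and 15635 on the MCAO + non-exercise array. Camk2a made most of this gap, and the other 13 markers summed to 12524 with exercise and 11372 without, a ratio of 1.10. The largest differences were 3.13 for Camk2a, -2.41 for Grin2b and 1.67 for Slc17a7. Rbfox3, which encodes the neuronal marker NeuN, had 6.45 with exercise and 5.52 without. In pools of sorted cells, more cells of a type and more RNA per cell cannot be told apart. All 13 kept markers of oligodendrocytes, the myelin-forming cells, were also above 0, with a median of 0.81 and summed intensities that had a ratio of 1.71, or 1.98 without Mbp. All 15 markers of astrocytes, the sorted cells, were above 0 as well, with a median of 0.85. Their summed intensities had a ratio of 1.55, or 2.17 without Slc1a2, the brightest of them. The part of astrocytes, neurons or oligodendrocytes in the difference of Atp6v1g2 was not tested.

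Cathepsins were mostly slightly lower on the MCAO + exercise array. Of 17 cathepsins 14 were kept, 12 of these were under 0 and 2 above 0, and the median was -0.16. Among all kept genes 46.4% were under 0. Of the 12, Ctsr and Ctsj were kept through the MCAO + non-exercise array alone, which fixed their sign. With background passed on both arrays, 10 of 12 were under 0 and the median was -0.12. Every cathepsin with a mean signal above 14, a level chosen after the values were seen, was lower. These 7 had differences from -0.45 to -0.01 with a median of -0.20, whereas 59.2% of all 502 kept genes at that level were above 0, with a median of 0.08. After median centring, quantile normalization and loess correction the medians of these 7 were -0.31, -0.36 and -0.26, and those of the 502 genes were -0.03, -0.02 and 0.00. Ctsb was above 0 after quantile normalization, at 0.10, and the other 6 stayed under 0. The lower values at that level were not particular to cathepsins. All listed glycosidases, sulfatases, lipases and other hydrolases above 14 were also lower, from -0.39 for Psap to -0.02 for Asah1. Lysosomal transporters at that level went both ways, with Laptm5 at -0.26 and Laptm4a at 0.07.

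The cysteine cathepsins of wide expression had differences of both signs. Ctsb, which cuts proteins internally and trims their ends, had 18.85 on the MCAO + exercise array and 18.96 on the MCAO + non-exercise array, a difference of -0.12. Ctsl, an endopeptidase, had nearly equal signals of 15.12 with exercise and 15.13 without. Ctsz, a carboxypeptidase, had 16.26 with exercise and 16.71 without. Its difference of -0.45, or 1.37-fold lower, was the largest negative one among the 7 cathepsins above a mean signal of 14. Ctsh, an aminopeptidase, had 14.06 with exercise and 14.30 without, a difference of -0.24. The 2 cathepsins above 0 were also of this class, with moderate signals. Ctsf had 10.78 with exercise against 10.57 without, and Ctso had 10.37 against 10.09. Their differences of 0.21 and 0.28 were close to the median of bright genes, and that of Ctsf was -0.02 after quantile normalization.

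Cathepsins of leukocytes and osteoclasts had small differences. Ctss, which trims the invariant chain for antigen presentation and is expressed by microglia, had 17.38 with exercise and 17.49 without. Ctsc, which activates the serine proteases of leukocyte granules, had 16.66 with exercise and 16.88 without. Both were lower, by 0.11 and 0.21 on the log2 scale. Ctsk, the collagen-degrading protease of osteoclasts, had 7.46 with exercise and 7.50 without. Among the other protease classes, Ctsa, a serine carboxypeptidase that also protects lysosomal glycosidases, had 16.68 with exercise and 16.88 without. The aspartic protease Ctse had 13.70 with exercise and 13.82 without. All 5 genes were thus lower by 0.21 or less.

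The rodent placental cathepsins on chromosome 13 were dim. Ctsr had 4.33 with exercise, which is under background, and 5.78 without, so its measured difference of -1.45 is no estimate of size. Ctsj was likewise under background with exercise, at 4.80 against 5.20 without. Both were kept through the MCAO + non-exercise array alone, which fixed their sign, so no fold is given for them. Ctsm had 6.14 with exercise and 6.56 without. All 3 lie in the dimmest class, where the median was -0.15. With 32 added before log2 the difference of Ctsr was -0.74, and no lysosomal gene was then lower by more than 1.

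LAMP1 and LAMP2, the main glycoproteins of the lysosomal membrane, had almost equal signals on both arrays. Lamp1 had 16.39 with exercise and 16.35 without, and Lamp2 had 16.96 with exercise and 16.98 without. LAMP2 also takes part in chaperone-mediated autophagy. Their differences of 0.04 and -0.02 were both smaller than the median of bright genes, and that of Lamp1 was under 0 under each of the 3 scalings.

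Set side by side, the median of the 22 kept pump genes without Atp6v1fnb was 0.03 and that of the 14 cathepsins was -0.16, a gap of 0.19. Of the pump genes, 8 lay above the highest cathepsin, and 2 cathepsins lay above the pump median, so the groups overlapped. The pump median was -0.07 after median centring and -0.08 after quantile normalization and after loess correction. With Atp6v1fnb included the gap was 0.21, and it lay between 0.17 and 0.34 under the alternatives tried. As genes on 1 pair of arrays are not replicates, the gap was not tested.

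Microglia are a known source of cathepsins, and their markers were bright on both arrays although the cells were sorted for ACSA-2. The summed intensity of the 18 kept microglia and macrophage markers was 1563780 on the MCAO + exercise array and 1798120 on the MCAO + non-exercise array. Laptm5, a lysosomal membrane protein of leukocytes, had 18.46 with exercise and 18.72 without, and Tyrobp and Trem2 had differences of -0.62 and -0.57. Tmem119 had one of 0.69. The summed intensity of the 14 cathepsins was 999140 with exercise and 1117460 without. The ratio of exercise to non-exercise was 0.89 for the cathepsins and 0.87 for the microglia markers, of which 12 were lower and 6 higher. Without Laptm5, the brightest of these markers, it was 0.88. Other lysosomal genes, described below, had ratios of 0.86 for glycosidases and sulfatases, 0.84 for lipases and other hydrolases and 0.88 for transporters. Laptm5 is also the brightest gene of the transporter list, so it enters both that ratio and the one for microglia markers. The median difference of the transporters was 0.02. Genes of biogenesis, cathepsin inhibitors and pump assembly had ratios of 1.00, 1.00 and 1.04. Over the other marker lists this ratio ran from 0.71 for T and NK cell markers to 3.18 for neuron markers. It was 0.87 for endothelial markers, and 0.79 without Slc2a1, the brightest of them. Each of the 14 markers of endothelium lay under 0 (median -0.35), and the largest differences were in Emcn, Tek and Abcb1a, at -0.69, -0.65 and -0.60. Of the 7 kept markers of T and NK cells, 2 were above background without exercise alone, which fixed their sign, and the other 5 were under 0 with a median of -0.21. All 15 astrocyte markers were above background and above 0, with a median of 0.85. Slc1a2, a glutamate transporter and the brightest of them, had 16.45 with exercise and 16.34 without, and Gpr37l1, S100b and Slc1a3 had differences of 2.10, 1.80 and 1.26. The part of microglia, endothelium or lymphocytes in the cathepsin signals was not tested.

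Other genes of the lysosome had small differences too. Of 20 kept glycosidases and sulfatases, which remove sugars and sulfate groups, 8 were above 0 and 12 under 0, with a median of -0.08. Ids was the largest at 0.81, Hexa had -0.38, Idua -0.44 and the brightest, Arsb, -0.25. Of 18 lipases, cofactors and other hydrolases, 6 were above 0 and 12 under 0, with a median of -0.09. Psap, the precursor of the saposins that present lipids to hydrolases, had 18.16 with exercise and 18.55 without, a difference of -0.39, and Acp2 had one of 0.67 and Ppt2 one of -0.36. None of these hydrolases passed 1 in either direction.

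Membrane transporters and genes of lysosome formation centred near 0. Of 25 transporters and channels, 15 were above 0 and 10 under 0 with a median of 0.02, and Mfsd8, Mfsd12 and Slc17a5, an exporter of sialic acid, had differences of 0.82, 0.74 and 0.63. Of 30 genes of biogenesis and sorting, 19 were above 0 and 11 under 0, with a median of 0.11. Mitf, a relative of TFEB, had 10.50 with exercise and 9.57 without, a difference of 0.93, whereas Tfeb had one of -0.39 and Tfe3 one of 0.08. Lamtor2, part of the complex that anchors mTORC1 to lysosomes, had 0.62, Hps1 -0.57 and Rab7, a GTPase of late endosomes, -0.04. The list for assembly of the pump also holds Tcirg1, which is the a3 isoform of V0 and not an assembly factor. Of its 10 kept genes, 5 were above 0 and 5 under 0, with a median of 0.02. Vma21, a chaperone that assembles V0, had 0.92, Oxr1 0.55 and Tmem199 0.28, and Tcirg1 had 12.82 on both arrays. Quantile normalization put the medians of transporters, biogenesis and assembly genes under 0, at -0.13, -0.03 and -0.16, and loess correction did so too.

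Cathepsin inhibitors included 1 gene past the threshold. Stfa2, a stefin of myeloid cells that inhibits cysteine cathepsins, had 8.55 with exercise and 6.84 without, a difference of 1.70. Serpina3n, a secreted serine protease inhibitor of reactive astrocytes, had a difference of 0.86, and Cst7 (cystatin F) of leukocytes one of -0.63. Cst3 (cystatin C), the brightest of the list, had 19.53 on both arrays. Neutrophil markers, which like stefins belong to myeloid cells, had a median of 0.89 over 11 kept genes, with summed intensities of 27961 with exercise and 27933 without. Csf3r alone made most of both sums, and the other 10 markers summed to 4403 with exercise and 1854 without, a ratio of 2.37. Ngp and Retnlg had the largest differences among markers above background on both arrays, at 2.83 and 1.62. Of the 11, 3 were above background with exercise alone, which fixed their sign, and the other 8 had a median of 0.97. The part of neutrophils in the signal of Stfa2 was not tested. Over all 111 kept genes of these lists, 56 were above 0 and 55 under 0, against 53.5% and 46.4% of all kept genes, with a median of 0.01. By more than 1, 1 gene was higher and 0 were lower, against 3.77% and 2.36%.

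**Figure D5:**
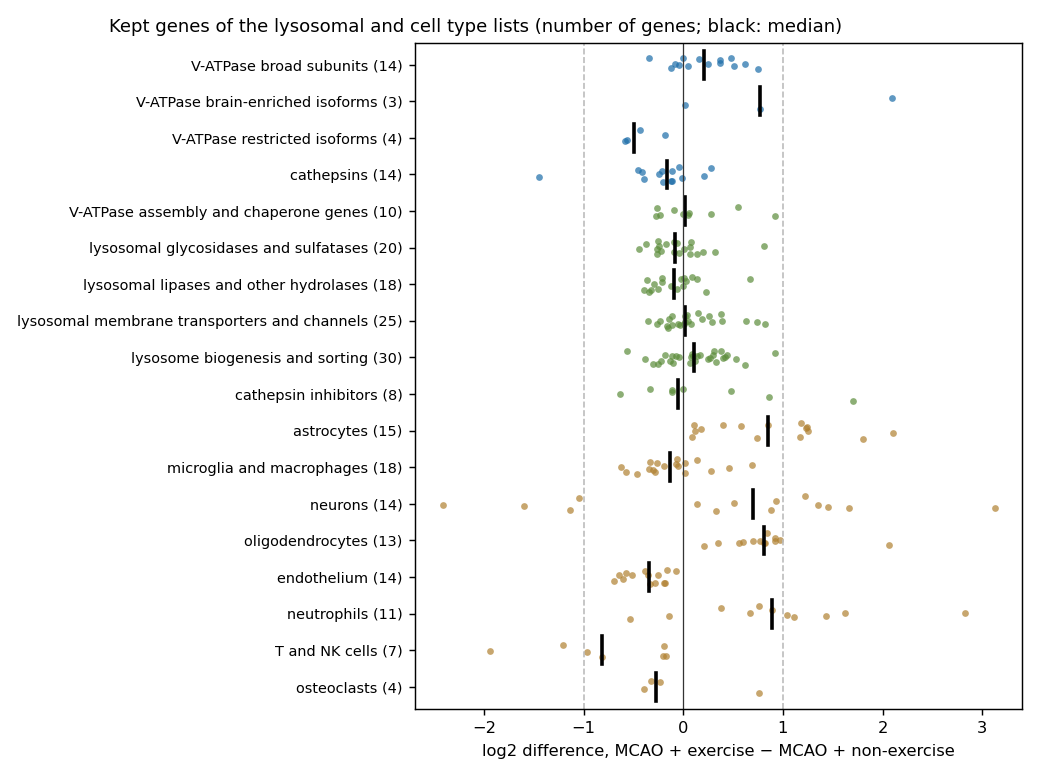
Log2 difference, MCAO + exercise minus MCAO + non-exercise, of each kept gene (dot) of the V-ATPase and cathepsin groups (blue), the other lysosomal lists (green) and the cell type marker lists (brown), with the median of each list as a black bar, the number of kept genes in parentheses and the threshold of 1 dashed. The other lysosomal lists centre between -0.09 and 0.11, whereas the astrocyte, neuron, oligodendrocyte and neutrophil marker lists have medians of 0.85, 0.70, 0.81 and 0.89, and the endothelial and T and NK cell lists -0.35 and -0.82. With only genes above background on both arrays, the medians were 0.89 for neurons, 0.97 for neutrophils and -0.21 for T and NK cells.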

How the data were processed

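The authors pooled RNA of sorted astrocytes, measured 1 Clariom S array per group and had the arrays normalized by a service with GCCN-SST-RMA, which corrects for probe GC content, rescales and summarizes each probe set. Affymetrix Expression Console and RMA stand in the submitters' processing notes, with no version. The deposited intensity values of 22142 probe sets are on a linear scale, and log2 was taken here. This normalization was kept, so its effect on bright signals carries over. The build behind the probe sets is not stated in the texts read. The platform annotation gave 1 gene symbol for 19527 probe sets and none for 2615. The study's negative control was not used here, and the 25th percentile took its place. The study's lists of changed genes used the same threshold of 1 and are far shorter than the counts past it here.

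All 46 genes of the rule are named. For the other lysosomal lists, the 3 kept genes with the largest absolute difference and the brightest are named. For the marker lists only some of these are named. Lcn2, Rbfox3, Tfeb and Tfe3, and the osteoclast markers at background, were added after their values were seen. The genes and lists were chosen with earlier results of these data known. Promoters came from RefSeq (GRCm38.p6). Protein sequences of the isoforms were not used here.

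Alternatives were a background at the 10th percentile, one passed on both arrays, no background, median centring, quantile normalization, loess correction with a span of 0.3, an offset of 32, averaging of probe sets per gene and a threshold of 0.5. The scaling and the counting past a threshold were checked on simulated arrays, which is no test of a difference here. Python 3.11.15, NumPy 2.4.6, pandas 2.3.3, statsmodels 0.14.6 and matplotlib 3.10.9 were used.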

Additional observations from a re-analysis of the deposited data

How the results depend on the processing

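Atp6v1g2 was past the threshold under each alternative run. Ctsr was not when a background on both arrays was required or an offset of 32 was added, which gave 0 genes lower. With a threshold of 0.5, 6 genes of the rule were higher, Atp6v1fnb among them, and 4 lower, Ctsr among them. The V0 median was 0.27 without isoforms of other organs and genes above background on 1 array, against 0.01 with them, and 0.02 without Atp6v0d2. The gap was 0.32 between widely expressed pump subunits and widely expressed cysteine cathepsins with Ctsa. These last 2 settings, and those without Atp6v1fnb, were added with the values known. Of 84 values of counts, group medians and the gap under alternatives, 79 moved by no more than 0.25 on the log2 scale, or 1.5 times for a count. That tolerance exceeds most of the medians. Of 56 medians of groups under alternatives, 9 changed sign, those of V0, LAMP and the whole pump under each of the 3 scalings. Averaging probe sets could move no lysosomal gene, as each has 1. Median centring, quantile normalization and loess correction moved the lysosomal genes by a median of -0.11, -0.17 and -0.12, which put Atp6v0a1, Atp6v0d1, Atp6v1h and Lamp1 under 0. Over all genes, 573 were higher and 359 lower by more than 1, against 433 and 575 after median centring, 516 and 230 with background passed on both arrays, and 403 and 99 with the offset. No paired analysis was possible because each group had 1 array. Dim genes such as Ctsj, Ctsm and Ctsr lie near background and have the least certain differences.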
